A study of Homo sapiens with 9 samples.

Results

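Chromatin accessibility was described around 5 genes for transcription factors of neural and sympathoadrenal cells: PHOX2A, INSM1, INSM2, TFAP2B and TBX2. A region belonged to a gene when its centre lay inside the gene's GRCh38 span or within 50 kb of either end. This rule took 46 of the 148797 regions in the count table, 7 for PHOX2A, 11 for INSM1, 8 for INSM2, 11 for TFAP2B and 9 for TBX2. The RefSeq spans were chr11:72239077-72244176 for PHOX2A (gene ID 401), chr20:20368104-20370949 for INSM1 (3642), chr14:35534164-35537054 for INSM2 (84684), chr6:50818355-50847619 for TFAP2B (7021) and chr17:61399843-61409466 for TBX2 (6909). Of the 46, 6 lay within 1 kb of a gene end and 40 lay farther away or deeper inside the gene. The cells were SK-N-BE(2)c, an established human neuroblastoma cell line, and every group was transfected by lipid with 100 nM of an antisense oligonucleotide (ASO) and collected after 48 h. The target of both ASO2 and ASO10 is NESPR, a long non-coding RNA, NCA is the negative control oligonucleotide, and each of the 3 groups had 3 libraries. In ATAC-seq the transposase Tn5 cuts and tags accessible DNA, so a higher count in a region means that it was more open in the population. All results come from a single cell line, and untransfected cells were not analysed here.

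These factors act in the cells of the sympathetic nervous system and adrenal medulla, from which neuroblastoma arises. PHOX2A is a homeodomain factor needed for noradrenergic differentiation and activates the gene for dopamine beta-hydroxylase. INSM1 is a zinc finger factor that promotes neuroendocrine differentiation and acts mainly by repressing transcription, and INSM2 is its close relative. TFAP2B is an AP-2 factor of neural crest derivatives, including sympathetic neurons. TBX2 is a T-box repressor that promotes proliferation and is expressed as part of the adrenergic regulatory network of neuroblastoma. Enhancers can lie far from the gene they act on, or inside a neighbouring gene, and a region's position alone does not say which gene it serves.

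Total counts per library ranged from 7293565 to 10948569, and the biological coefficient of variation between replicates was 23.5%. Of the 148797 regions, 119417 held enough counts to be tested. The labels do not say that replicates came from separate cultures, so p-values measure the spread between these libraries, which may be technical. Accessibility at marker genes was checked against the labelled cell type. A region within 1 kb of a gene end was present for 9 of 10 adrenergic markers, with a median over genes of 13.2 CPM (counts scaled to a common library total) per kb in NCA, and TH had none. Of 8 mesenchymal markers 4 had such a region (median 9.75 CPM per kb), and PRRX1, TWIST2, VIM and CD44 had none. Levels of the sets overlapped, from 3.695 (DDC) to 26.59 (CHGB) in adrenergic markers and up to 13.38 (SNAI2) in mesenchymal ones. The adrenergic median was close to the 12.33 of all tested gene-end regions, so these levels alone do not identify the cell type. Markers of other tissues had a region for 1 of 5 T and B cell genes (CD3D), 1 of 3 hepatocyte genes (APOA1) and 0 of 2 keratinocyte genes.

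The promoters that fell in open regions are shown to make the targets of the measurement visible. RefSeq promoters (GRCh38.p14, 250 bases before and 50 after the start) were matched for 3 of the 5 genes, PHOX2A, INSM2 and TFAP2B. Those of PHOX2A and INSM2 are placed on the gene end used here. That of TFAP2B lies wholly inside the gene's span, which begins at 50818355, so it describes an internal start. They run 5′ to 3′ on the gene's strand, and capitals mark matches on either strand to GCCNNNGGC (TFAP2), AGGTGT (T-box core), CCAAT, the GC box GGGCGG or the TATA box TATAAA.
PHOX2A promoter, chr11:72244127-72244426, minus strand: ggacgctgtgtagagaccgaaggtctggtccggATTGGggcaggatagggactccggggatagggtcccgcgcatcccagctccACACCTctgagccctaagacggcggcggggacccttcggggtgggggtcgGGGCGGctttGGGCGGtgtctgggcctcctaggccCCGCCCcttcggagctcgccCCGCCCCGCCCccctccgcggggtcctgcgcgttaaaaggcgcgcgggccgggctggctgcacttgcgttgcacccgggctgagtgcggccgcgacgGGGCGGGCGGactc
INSM2 promoter, chr14:35533914-35534213, plus strand: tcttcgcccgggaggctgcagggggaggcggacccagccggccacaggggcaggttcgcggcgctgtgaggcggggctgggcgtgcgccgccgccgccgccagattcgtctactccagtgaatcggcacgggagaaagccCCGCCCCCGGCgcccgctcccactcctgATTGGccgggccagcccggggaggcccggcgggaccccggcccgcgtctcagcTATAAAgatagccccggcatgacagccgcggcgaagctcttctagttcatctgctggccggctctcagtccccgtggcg
TFAP2B promoter, chr6:50818621-50818920, plus strand: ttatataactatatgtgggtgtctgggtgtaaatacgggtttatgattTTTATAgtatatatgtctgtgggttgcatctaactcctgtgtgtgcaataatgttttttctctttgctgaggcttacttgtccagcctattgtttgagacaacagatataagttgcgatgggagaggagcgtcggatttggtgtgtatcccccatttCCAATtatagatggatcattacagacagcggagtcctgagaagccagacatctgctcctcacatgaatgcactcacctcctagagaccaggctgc

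All 300 bases of the PHOX2A and INSM2 promoters lay inside their deposited region, and 236 of the 300 bases of the TFAP2B promoter did. PHOX2A and INSM2 were rich in GC (73.7% and 73.0%, with 34 and 35 CpG dinucleotides), while TFAP2B held 43.0% GC and 5 CpG. The medians over 35116 promoters of the same table were 58.7% and 14. The PHOX2A sequence held 7 GC boxes, of which 2 pairs overlapped, 1 T-box core and 1 CCAAT. Of all promoters, 45.0% held a GC box, 11.4% the T-box core and 34.6% CCAAT. In the INSM2 sequence, 1 TFAP2 match overlapped 1 GC box, CCAAT stood at -82 from the start and TATAAA at -29; 23.2% of promoters held the TFAP2 letters and 11.5% TATAAA. The TFAP2B sequence had CCAAT at -45 from its internal start and TATAAA at -202 on the opposite strand. An E-box (CANNTG, not in capitals, in 68.7% of promoters) occurred 1 time each in PHOX2A and INSM2 and 2 times in TFAP2B. No match was found in these 3 sequences for AGATAA (bound by GATA factors), the homeodomain core TAATTA, the AP-1 site TGACTCA, the CREB site TGACGTCA or the ATF4 composite site TGATGCAA, which 10.3%, 4.84%, 4.95%, 1.85% and 0.866% of promoters held. These matches are letters in a window and do not show that a factor binds.

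In NCA the gene-end regions of 4 of the 5 genes lay above the median of gene-end regions per kb, and that of INSM1 was weakly open. Those of INSM1 and TFAP2B lie inside the gene, within 1 kb of its lower-coordinate end but not reaching it. No region covered either end of INSM1, so openness at the INSM1 ends themselves is not given by these counts. Levels are given as CPM per kb of region, as mean ± SD over 3 libraries, beside a median of 12.3 over all tested gene-end regions. The PHOX2A start was highest at 22.1 ± 2.06, followed by the INSM2 start at 20.1 ± 1.58, the TFAP2B start at 17.0 ± 4.23, the far end of PHOX2A at 15.4 ± 1.20 and the TBX2 end at 14.5 ± 1.63. Neighbours in that order differed by less than the sum of their SDs. INSM1 stood below them at 4.28 ± 0.942, at percentile 4.3 of gene-end regions, while the PHOX2A start was at percentile 82.4 and the TBX2 end at 60.2. The TFAP2B region is only 236 bases wide and held 4.02 ± 0.998 CPM. In CPM it was nearer to INSM1 (2.21 ± 0.487) than to the TBX2 end (21.85 ± 2.446) or the INSM2 start (44.0 ± 3.46). Over all tested regions, at gene ends or not, the median was 6.44 CPM per kb. The regions of the INSM1 window lay on both sides of that value, from 4.09 to 9.95 CPM per kb in NCA, and all below the gene-end median of 12.3. Its gene-end region carried 5.1% ± 0.9 of the window's counts in NCA, against 69.3% ± 2.8 for the 2 gene-end regions of PHOX2A. TFAP2B (7.3% ± 2.8), TBX2 (16.5% ± 1.4) and INSM2 (40.4% ± 2.2) lay between.

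**Figure D1:**
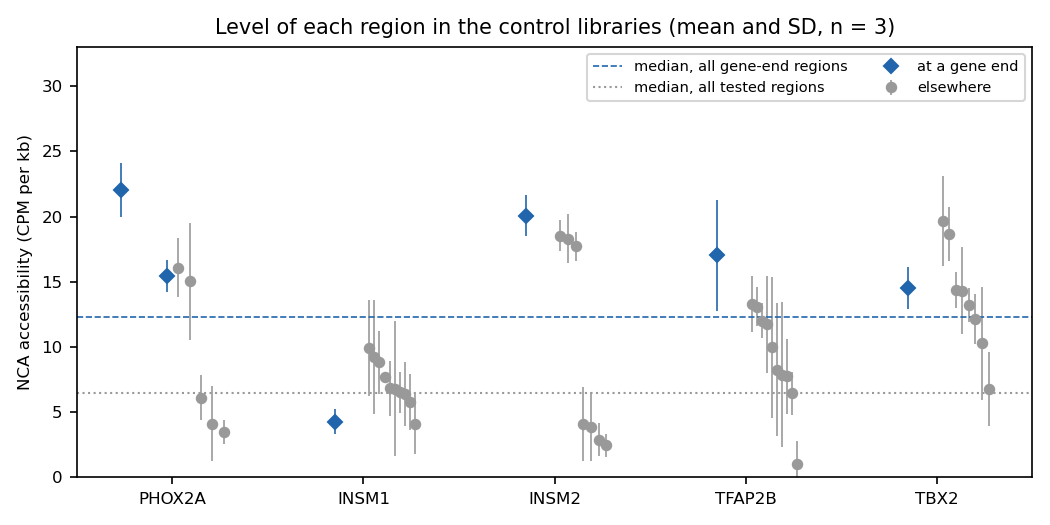
Accessibility in NCA of all 46 regions by gene, in CPM per kb of region (diamonds, gene-end regions; circles, other regions; mean with SD of 3 libraries; lines, medians of all gene-end and of all tested regions). The PHOX2A and INSM2 starts lie near 22.1 and 20.1, and the INSM1 gene-end region, inside the gene, lies at 4.28.

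Under ASO10, 3 of the 41 tested regions around the 5 genes rose and 0 fell, and under ASO2 none passed the test (edgeR's quasi-likelihood test, Benjamini-Hochberg adjusted over all 119417 tested regions, threshold 0.05). The 3 regions were 2 distal regions past INSM2, inside the neighbouring gene RALGAPA1, and the region over the lower-coordinate end of TBX2. They made up 7.32% of the tested members, where 1.09% of all tested regions were called under ASO10 in either direction and 0.876% were called higher. With offsets fitted to abundance by loess, the split under ASO10 was 2 higher and 1 lower, since the TBX2 region was lost and the far end of PHOX2A was called lower. For ASO2 the background was 5.6% of all tested regions; 8 of the 41 members had an unadjusted p under 0.05, where 16.5% of all tested regions did, and DESeq2 and limma-voom also called 0. The 5 regions left untested were weak, with group means between 0.172 and 1.61 CPM, so every count here covers the 41 regions with enough counts and not all 46. In a bulk library, a region open in more cells and a region more open in each cell cannot be told apart.

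INSM2 was the locus with the clearest difference. The region 20.2 kb past the gene (chr14:35556337-35558233, intragenic in RALGAPA1) had 35.9, 32.0 and 32.8 CPM in NCA, 43.4, 41.2 and 39.4 in ASO2, and 54.5, 48.4 and 52.2 in ASO10. All 6 ASO libraries lay above all 3 NCA libraries, and the ASO10 libraries lay above those of ASO2. Under ASO10 it rose 1.54-fold, or 0.62 ± 0.12 (SE) on the log2 scale (edgeR adjusted p = 0.000275). ASO2 gave 0.30 ± 0.12, which did not pass (unadjusted p = 0.0142, edgeR adjusted p = 0.148). The average of both ASOs was higher than NCA by 0.46 ± 0.11 (edgeR adjusted p = 0.00182). RALGAPA1, which encodes a catalytic subunit of a GTPase-activating complex for Ral proteins, spans 270.9 kb next to INSM2, and which of the genes these regions serve was not tested.

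Farther out, the region 37.0 kb past INSM2 (chr14:35573524-35574617, also in RALGAPA1) had 18.8, 21.1 and 21.0 CPM in NCA, 20.8, 24.2 and 25.0 in ASO2, and 33.7, 31.9 and 31.9 in ASO10. The ASO10 libraries stood apart from the other 6, while NCA and ASO2 overlapped. ASO10 raised it 1.60-fold, by 0.68 ± 0.14 on the log2 scale (edgeR adjusted p = 0.000736), and ASO2 gave 0.21 ± 0.14 (edgeR adjusted p = 0.49). Both ASO10 calls at INSM2 held without any one of the 9 libraries, with log2 fold changes of 0.58 to 0.67 at 20.2 kb and 0.62 to 0.71 at 37.0 kb. Regions of like abundance shifted upwards slightly under ASO10, with a median of 0.10 over the 8117 regions between 4 and 5 log2 CPM and 0.15 over the 2695 between 5 and 6. The average of both ASOs was also called higher at 37.0 kb (0.44, edgeR adjusted p = 0.0166), so 2 members passed that contrast (background 2.99%), but without any one of the NCA libraries this call was lost and 1 member passed.

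The INSM2 start itself (chr14:35533418-35535613, over the promoter printed above) had 47.8, 41.0 and 43.3 CPM in NCA, 44.3, 53.9 and 42.8 in ASO2, and 54.4, 49.7 and 55.3 in ASO10. ASO10 libraries lay above NCA libraries, and ASO2 overlapped both. The difference of 0.27 ± 0.12 under ASO10 did not pass (unadjusted p = 0.0193, edgeR adjusted p = 0.329), and ASO2 gave 0.09 (edgeR adjusted p = 0.754). A weak region 13.8 kb before the gene (chr14:35519862-35520843) had 1.42, 2.77 and 3.06 CPM in NCA, 3.51, 2.36 and 2.66 in ASO2, and 3.75, 4.32 and 7.68 in ASO10. Its log2 fold change under ASO10 was 1.10 ± 0.36 (unadjusted p = 0.00218, edgeR adjusted p = 0.113). Of the 6 tested INSM2 regions, 4 had all ASO10 libraries above all NCA libraries, where 8.51% of all tested regions did. The other tested regions, 40.0 and 43.6 kb past the gene, had ASO10 values of -0.17 and 0.42 and ASO2 values of -0.72 and 0.55, none of which passed.

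**Figure D2:**
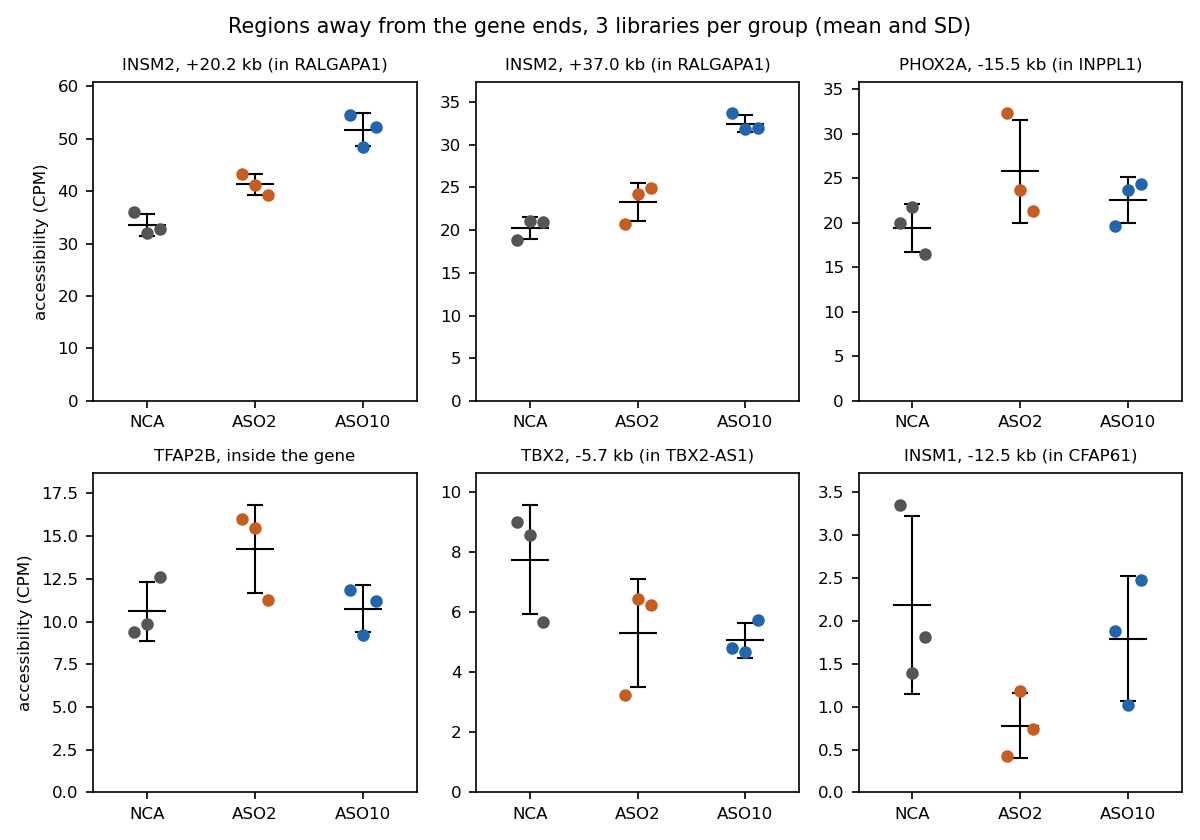
Accessibility in CPM (points are 3 libraries per group, bars are mean and SD) of 6 named regions away from the ends of the 5 genes. The PHOX2A panel shows the region over the start of the neighbouring gene INPPL1. In the 2 INSM2 panels the ASO10 libraries (48.4 to 54.5 and 31.9 to 33.7) lie above every NCA library, while in the INSM1 and TFAP2B panels ASO10 overlaps NCA.

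At TBX2, the region over the lower-coordinate gene end (chr17:61399190-61400692, which also overlaps the antisense gene TBX2-AS1) had 19.3, 24.2 and 22.0 CPM in NCA, 25.0, 30.3 and 24.0 in ASO2, and 30.4, 30.3 and 30.7 in ASO10. The ASO10 libraries were tightly grouped above NCA and, by a narrow margin (lowest ASO10 30.27, highest ASO2 30.26), above ASO2, which overlapped NCA. It rose 1.39-fold under ASO10 (0.48 ± 0.14, edgeR adjusted p = 0.0456), and ASO2 gave 0.27 ± 0.14 (unadjusted p = 0.0458, edgeR adjusted p = 0.289). The ASO10 call was lost without any one NCA library, any one ASO10 library or ASO2 replicate 1 (log2 fold changes of 0.40 to 0.55, edgeR adjusted p up to 0.334), and with loess offsets (0.36, edgeR adjusted p = 0.146). ATAC-seq reads carry no strand information about transcription, so this region could belong to either gene.

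Of the other regions around TBX2 none passed. The region 5.7 kb before the gene, inside TBX2-AS1 (chr17:61393867-61394408), was the lowest in p of the distal regions, with 9.02, 8.57 and 5.67 CPM in NCA, 3.23, 6.44 and 6.24 in ASO2, and 4.81, 4.67 and 5.73 in ASO10. Of the ASO libraries 1 of ASO2 and 2 of ASO10 lay under all NCA libraries, so the groups overlapped, and the log2 fold changes were -0.52 ± 0.25 (ASO2, edgeR adjusted p = 0.275) and -0.61 ± 0.26 (ASO10, edgeR adjusted p = 0.317). The most open distal region per length, 7.5 kb past the gene (chr17:61416680-61417169), was level at 9.63 ± 1.71 CPM in NCA, 9.67 ± 1.41 in ASO2 and 9.44 ± 2.17 in ASO10 (SD, n = 3 each). The strongest in CPM, 2.7 kb past the gene over the non-coding gene LINC02875, had 38.2 ± 4.25, 36.9 ± 1.83 and 41.8 ± 1.04. The gene-end region made up 16.5% ± 1.4 of the TBX2 window's counts in NCA, 20.7% ± 1.2 in ASO2 and 22.1% ± 1.5 in ASO10. This share is computed from the region called under ASO10, so it is not separate support.

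**Figure D3:**
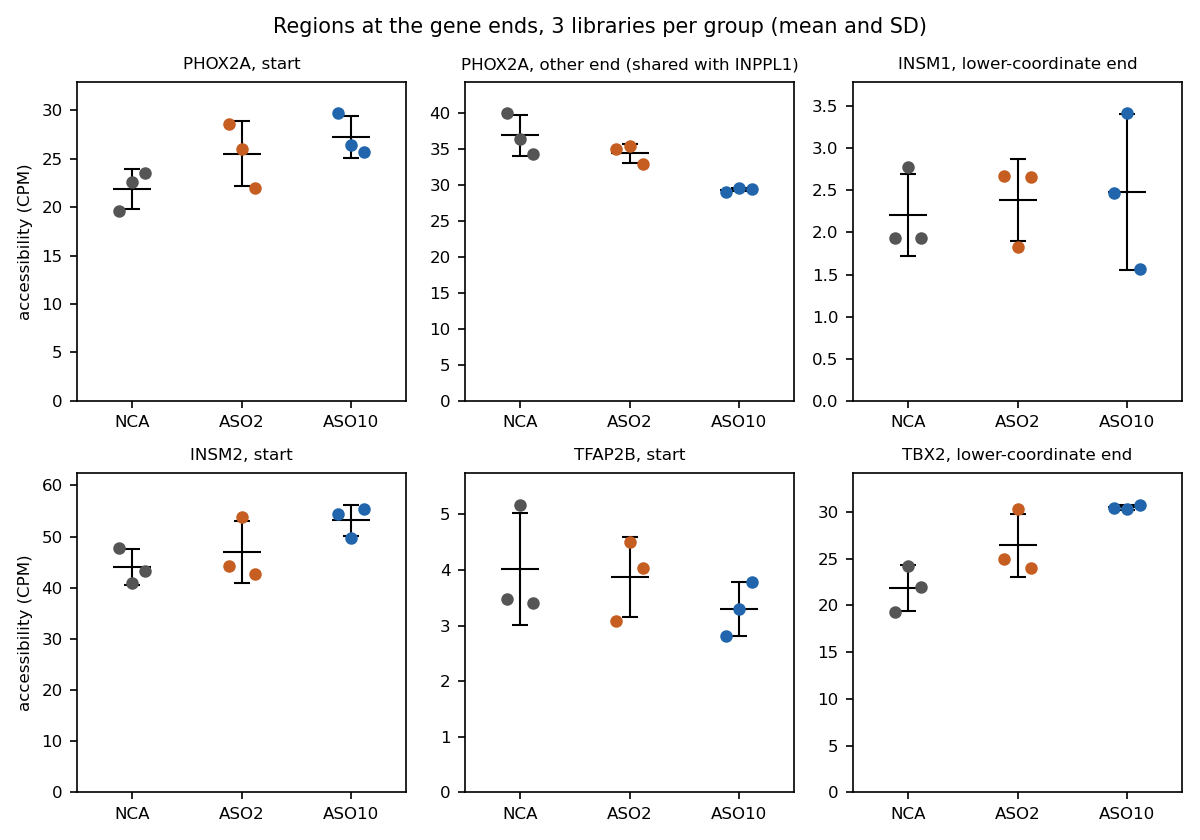
Accessibility in CPM of the 6 regions within 1 kb of a gene end (points, 3 libraries per group; bars, mean and SD). ASO10 lies above NCA at the PHOX2A start, the INSM2 start and the TBX2 end, and below NCA at the far end of PHOX2A.

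The ends of PHOX2A had values of opposite sign under ASO10, neither of which passed the test. At the start (chr11:72243861-72244852, over the promoter printed above) the values were 19.6, 22.6 and 23.5 CPM in NCA, 28.6, 26.0 and 21.9 in ASO2, and 29.7, 26.4 and 25.6 in ASO10. ASO10 lay above NCA and gave 0.32 ± 0.14 (unadjusted p = 0.0232, edgeR adjusted p = 0.356), and ASO2 overlapped NCA and gave 0.21 ± 0.14 (edgeR adjusted p = 0.47). The far end, where PHOX2A meets INPPL1, a gene for a phosphoinositide phosphatase, lies in a wide region (chr11:72237544-72239931). It had 39.9, 36.4 and 34.3 CPM in NCA, 34.9, 35.4 and 32.9 in ASO2, and 29.1, 29.6 and 29.4 in ASO10. ASO10 lay below every other library here, with a log2 fold change of -0.33 ± 0.13 (unadjusted p = 0.00982, edgeR adjusted p = 0.241), which passed only with loess offsets (-0.46, edgeR adjusted p = 0.00988).

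The region 15.5 kb below PHOX2A in coordinates, over the start of INPPL1 (chr11:72222987-72224193), had 19.97, 21.8 and 16.4 CPM in NCA, 32.3, 23.7 and 21.3 in ASO2, and 19.6, 23.7 and 24.4 in ASO10. The groups overlapped, and ASO2 replicate 1 was the highest library. ASO2 gave 0.40 ± 0.14 (unadjusted p = 0.00547, edgeR adjusted p = 0.0792), which was the smallest p of any member under ASO2, and ASO10 gave 0.22 (edgeR adjusted p = 0.637). The ASO2 value depended on single libraries: without ASO2 replicate 1 it was 0.22 (edgeR adjusted p = 0.587), without NCA replicate 3 it was 0.29 (edgeR adjusted p = 0.397), and without ASO2 replicate 3 it was called at 0.52 (edgeR adjusted p = 0.0212). It was the one member called under ASO2 in any alternative with the 50 kb window.

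INSM1 showed no called difference. An unadjusted p under 0.05 was found at 2 of its 10 tested regions under ASO2 and 0 under ASO10 (16.5% and 10.6% of all tested regions), and DESeq2 and limma-voom called 0. Its gene-end region (chr20:20368601-20369117, inside the gene) had 1.93, 2.77 and 1.93 CPM in NCA, 2.67, 1.82 and 2.66 in ASO2, and 2.46, 3.41 and 1.56 in ASO10. All groups overlapped, and the log2 fold changes were 0.11 ± 0.45 under ASO2 and 0.17 ± 0.45 under ASO10 (edgeR adjusted p = 0.943 and 0.933). The 95% intervals of these values reach -0.78 to 0.99 and -0.71 to 1.06, so changes of the size seen at INSM2 were not detectable here. In the neighbouring cilium gene CFAP61, 12.5 kb before INSM1 (chr20:20355494-20355729), NCA had 3.35, 1.39 and 1.81 CPM, ASO2 0.421, 1.18 and 0.734, and ASO10 1.88, 1.02 and 2.47. ASO2 lay below NCA in every library and gave -1.44 ± 0.60, which did not pass (edgeR adjusted p = 0.162). A region 40.0 kb past the gene, in RALGAPA2 (chr20:20410824-20411139), had 2.32, 3.66 and 2.38 CPM in NCA, 5.33, 5.79 and 3.58 in ASO2, and 4.93, 3.30 and 2.34 in ASO10. The groups overlapped there too, with 0.80 ± 0.34 under ASO2 (edgeR adjusted p = 0.176). The strongest region in CPM of the INSM1 window, in CFAP61 11.1 kb before the gene, had 17.5 ± 0.698, 16.6 ± 1.61 and 19.8 ± 3.53 CPM in NCA, ASO2 and ASO10.

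Around TFAP2B, which holds 8 of its 11 regions inside the gene, no region passed in any contrast, and DESeq2 and limma-voom called 0. An unadjusted p under 0.05 was found at 1 of 10 tested regions under ASO2 and 0 under ASO10, against 16.5% and 10.6% of all tested regions. The start (chr6:50818683-50818918) had 3.48, 5.17 and 3.40 CPM in NCA, 3.09, 4.51 and 4.04 in ASO2, and 2.81, 3.30 and 3.78 in ASO10. The groups overlapped, with log2 fold changes of -0.04 ± 0.34 and -0.28 ± 0.34 (edgeR adjusted p = 0.974 and 0.832). The most open distal region per length, 3.5 kb inside the gene (chr6:50821494-50822292), had 9.40, 9.83 and 12.6 CPM in NCA, 16.0, 15.4 and 11.3 in ASO2, and 11.8, 9.22 and 11.2 in ASO10. In ASO2, 2 libraries lay above all others and the third among NCA, giving 0.41 ± 0.18 (unadjusted p = 0.0247, edgeR adjusted p = 0.206) and 0.01 under ASO10 (edgeR adjusted p = 0.99). The strongest region in CPM, 2.3 kb past the gene, had 22.2 ± 2.53, 22.4 ± 1.64 and 25.1 ± 3.17 CPM in NCA, ASO2 and ASO10.

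**Figure D4:**
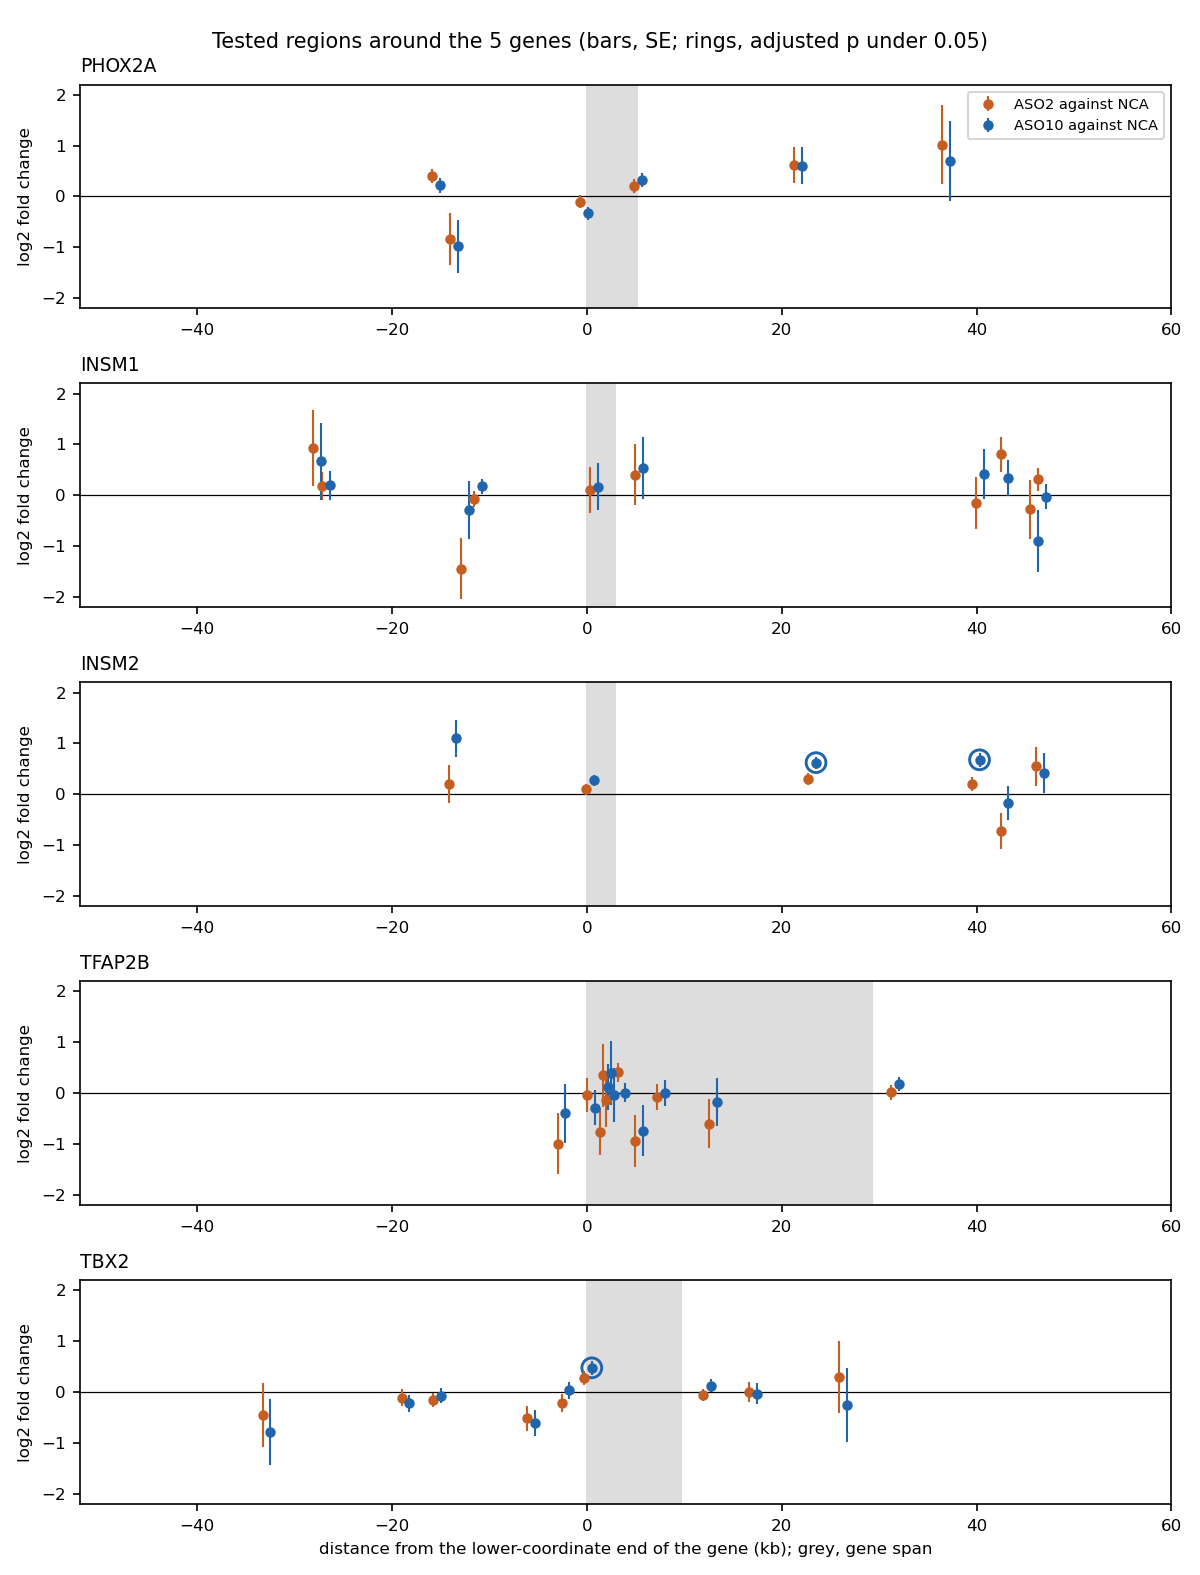
Log2 fold change against NCA (points; bars, SE; rings, adjusted p under 0.05) of the tested regions, by distance in kb from the lower-coordinate end of each gene, whose span is grey. Rings mark ASO10 at the regions 20.2 and 37.0 kb past INSM2 (0.62 and 0.68) and at the TBX2 end (0.48), and no ASO2 point is ringed.

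Compared directly, ASO2 and ASO10 differed at 1 of the 41 tested members, where 3.23% of all tested regions differed and 0.682% were lower in ASO2. This was the region 37.0 kb past INSM2, at 23.3 ± 2.24 CPM in ASO2 and 32.5 ± 1.03 in ASO10, a log2 fold change of -0.47 ± 0.14 (edgeR adjusted p = 0.0222). The call was lost with loess offsets (-0.37, edgeR adjusted p = 0.0663) and without ASO2 replicate 1 or any one ASO10 library (edgeR adjusted p up to 0.197). With loess offsets the 1 call was instead the far end of PHOX2A, higher in ASO2 (0.36, edgeR adjusted p = 0.0499). At 20.2 kb past INSM2 the difference was -0.33 ± 0.12 (edgeR adjusted p = 0.109), and it passed with DESeq2 (adjusted p = 0.039), with limma-voom (adjusted p = 0.0406) and with a minimum of 10 counts (edgeR adjusted p = 0.043). For the TBX2 end (-0.20, edgeR adjusted p = 0.505), the INSM2 start (-0.18, edgeR adjusted p = 0.501) and the PHOX2A start (-0.10, edgeR adjusted p = 0.791) the ASOs did not differ beyond the spread. The 95% intervals of these 3 differences were -0.47 to 0.06, -0.40 to 0.05 and -0.37 to 0.16. Over all 13530 tested gene-end regions the median difference was -0.15, and 27.6% were positive, so a negative lean is not particular to these genes. ASO2 and ASO10 are compared with the same NCA libraries, so their values against NCA are not independent.

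Summed over its whole window, INSM2 was the one locus whose groups did not overlap. Its 8 regions together had 112.2, 107.3 and 107.6 CPM in NCA, 121.4, 128.6 and 117.8 in ASO2, and 153.2, 142.5 and 157.0 in ASO10. The ratio to NCA was 1.12 for ASO2 and 1.38 for ASO10. This sum includes the 2 regions called under ASO10, whose means rose from 33.6 to 51.7 and from 20.3 to 32.5 CPM. It is therefore not separate support. How often such sums separate around other genes was not counted. Of single tested regions, 20.5% separated either way between ASO2 and NCA, 15.7% between ASO10 and NCA and 19.3% between the ASOs. The two-sided exact permutation p was 0.1 for each of the 3 pairs of groups, the smallest that 3 against 3 libraries can give (0.5 adjusted over 15 tests). Its gene-end share was 40.4% ± 2.2 in NCA, 38.2% ± 3.2 in ASO2 and 35.2% ± 0.3 in ASO10. The other loci overlapped between groups. Mean sums in NCA, ASO2 and ASO10 were 85.0, 93.0 and 87.0 CPM for PHOX2A and 43.5, 45.7 and 46.7 for INSM1. They were 56.4, 56.3 and 57.6 for TFAP2B and 132, 127.5 and 138 for TBX2.

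**Figure D5:**
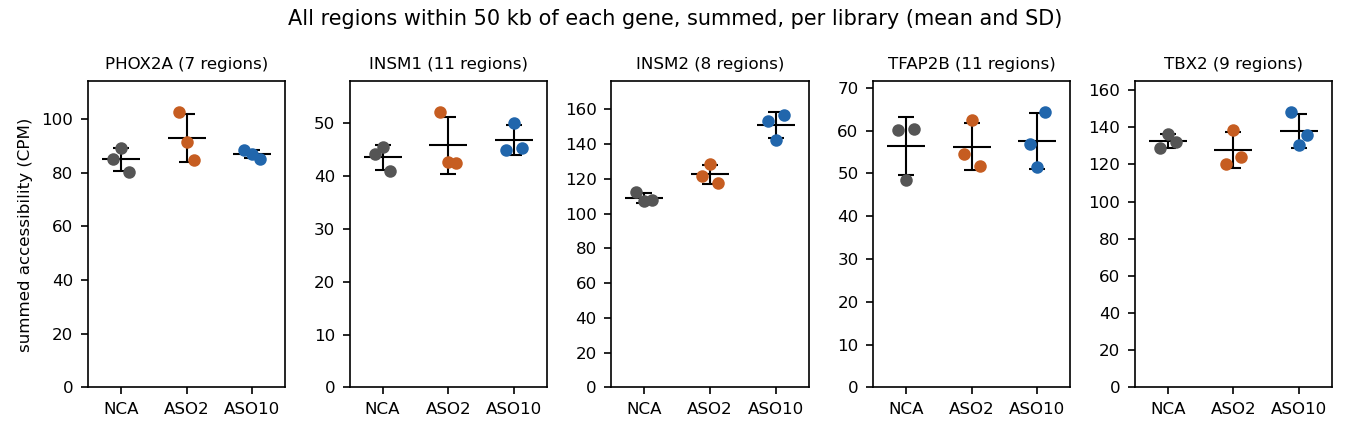
Summed accessibility in CPM of all regions within 50 kb of each gene (points, 3 libraries per group; bars, mean and SD). INSM2 steps from 109 in NCA to 123 in ASO2 and 151 in ASO10 with no overlap, and the other 4 loci overlap.

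Over all members the values spread around 0. The median log2 fold change of the 41 tested regions was 0.00 under ASO2 and 0.12 under ASO10, beside -0.02 and -0.01 over all tested regions, and with loess offsets it was -0.05 and 0.02. By gene, the ASO10 medians were 0.52 for INSM2, 0.27 for PHOX2A, 0.19 for INSM1, -0.02 for TFAP2B and -0.07 for TBX2 (0.47, 0.16, 0.23, -0.01 and -0.17 with loess offsets). ASO2 gave 0.21, 0.31, 0.15, -0.11 and -0.11 in the same order. At the 6 gene-end regions the ASO10 median was 0.22, beside 0.09 over all gene-end regions (0.16 and 0.02 with loess offsets). All ASO10 libraries lay above all NCA libraries at 3 of the 6, and at 17.9% of all gene-end regions. The regions next to the 50 kb limit were weak on the inner side, at most 6.78 CPM in NCA. Just outside it, a region 50.7 kb from INSM2 had 3.28 CPM in NCA, 7.04 in ASO2 and 5.03 in ASO10.

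The same windows around other genes of the lineage were counted for comparison. The list of 24 other adrenergic and sympathoadrenal factors had 315 tested regions, of which 15 rose and 1 fell under ASO2 (5.08%, background 5.6%) and 3 rose and 1 fell under ASO10 (1.27%, background 1.09%). Its medians were -0.01 under ASO2 and 0.02 under ASO10. Between the ASOs 12 of its regions were higher in ASO2 and 4 lower (5.08%, background 3.23%, with 2.54% of all regions higher in ASO2 and 0.682% lower). The 15 genes for products of the lineage, such as DBH for noradrenaline synthesis and CHGA for secretory granules, had 183 tested regions. Of these, 6 rose and 0 fell under ASO2, 0 rose and 2 fell under ASO10, and 5 were higher in ASO2 than in ASO10. The called shares were 3.28%, 1.09% and 2.73%, beside backgrounds of 5.6%, 1.09% and 3.23%.

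Gene ends with the most alike pattern were sought by Pearson's r of log2 CPM over the 9 libraries, among about 9210 gene-end regions, as a description. For the TBX2 end they were HBS1L and HINFP (both r = 0.987) and PI4KA (0.971). The INSM2 start was most like WDR81 (0.982), CEBPG (0.974) and TRIM24 (0.973). The far end of PHOX2A was most like BNIP1 (0.943), SLC9B1 (0.932) and TATDN1 (0.925). Weaker likeness was found for TFAP2B, with ZNF630 (0.912), FBXO41 (0.845) and AP1G2 (0.819), and for INSM1, with CYB5R1 (0.87), BLOC1S4 (0.865) and TUT1 (0.853). With 9 points and so many candidates, high values of r occur without any relation. The values were scaled for library depth, but shifts shared by many gene ends remained, such as the median of 0.09 under ASO10.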

How the data were processed

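ATAC-seq was measured in 9 libraries, 3 per group, grouped by the labels. The authors deposited whole-number counts per region, with 1 set of regions for all libraries and no normalization in the values. Per the submitters' processing notes, FastQC, Bowtie2 2.2.6, SAMtools, MACS2 2.1.2, DESeq2 1.42.0 and GRCh38 (hg38) were used. Filters, the shift for Tn5, whether reads or read pairs were counted, and whether peaks were called per library or pooled are not given in the sources used here. The molecule field of the labels reads RNA, against a protocol on genomic DNA, which was taken as correct.

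Gene spans came from a RefSeq GRCh38 table. Coordinates are 1-based, as in the region names. Regions were filtered with filterByExpr by group and scaled by TMM, and CPM uses the scaled totals. All 9 libraries entered 1 fit in R 4.3.3 with edgeR 4.0.16 (quasi-likelihood, robust), and p-values were Benjamini-Hochberg adjusted over 119417 regions. SE is the log2 fold change over the square root of F, and 95% intervals span 1.96 SE. The fit was tested on simulated data. Window sums were compared by exact permutation. Promoters were searched by letters on both strands. Total counts of 7293565 to 10948569 limit precision in weak regions.

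Named regions were those at gene ends, the most open other region per length, the other region with the smallest p, and every called region, for each gene. The regions 13.8, 40.0 and 43.6 kb from INSM2, the strongest in CPM around TBX2, INSM1 and TFAP2B, and those at the window edges were added after their values were seen. The genes and lists were chosen with earlier results of these data known. Alternatives were RLE factors, total counts (window sums), DESeq2, limma-voom (limma 3.58.1), loess offsets (span 0.3) fitted to abundance, all regions kept, a minimum of 10 counts per library, a block for the replicate number, fits of 2 groups alone, windows of 20 and 100 kb, and leaving out each library. No library was a copy of another (chi-square per degree of freedom 2.93 to 3.65 within groups). Python 3.11.15 and pandas 2.3.3 made the tables.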

Additional observations from a re-analysis of the deposited data

Results flagged for a closer look

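The region 37.0 kb past INSM2 is singled out because the ASOs, directed against the same RNA, differed there when compared directly. It was the 1 such region among the 41 tested members (2.44%), a share below the 3.23% of all tested regions that differed. Called lower in ASO2 were 0.682% of all tested regions. The log2 fold change of ASO2 against ASO10 was -0.47 (edgeR adjusted p = 0.0222), with 20.8, 24.2 and 25.0 CPM in ASO2 and 33.7, 31.9 and 31.9 in ASO10. All 3 ASO10 libraries lay above all 3 ASO2 libraries, which were near NCA at 18.8 to 21.1. The call was lost with loess offsets, without ASO2 replicate 1 or without any one ASO10 library. Regions of like abundance leaned the same way, with a median of -0.108 over the 8117 regions between 4 and 5 log2 CPM.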

How the results depend on the processing

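Of 846 fold changes and window sums under an alternative, 778 kept direction and side of the threshold, 47 changed sign, 15 lost and 6 gained a call. Of 75 counts of called members, 47 equalled the reported count, 12 changed within 1.5 times (ASO10 from 3 to 2, or the average of both ASOs from 2 to 3) and 16 changed by more, or to or from 0. Calls depended on the window, which changed only the members counted and not the fit. At 100 kb ASO2 had 3 and the average of both ASOs 4. At 20 kb ASO10 had 1, at the TBX2 end, and ASO2 against ASO10 and the average had 0 each. The called INSM2 regions, 20.2 and 37.0 kb past the gene, lay outside that window. ASO2 against ASO10 gave 2 with DESeq2, 2 with limma-voom and 2 with a minimum of 10 counts. Without replicate 1, 2 or 3 of any group in turn, ASO2 had 0 to 1 calls and ASO10 2 to 3, the ASOs differed at 0 to 1 members, and the average had 1 to 3. Deviations from group means correlated at -0.11 to 0.06 between same-numbered libraries of different groups and at -0.05 to 0.10 between differently numbered ones. Such values cannot tell whether the replicate numbers pair libraries, and the labels do not state it. With the replicate block the TBX2 end under ASO10 was 0.48 (edgeR adjusted p = 0.0706) and lost its call. Under ASO10, 2 members were then called, and no other call changed. The TBX2 end also lost it with no filter (0.49, edgeR adjusted p = 0.0673).

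Sign changes touched only values that passed no test, and the cause was not tested. At TFAP2B 3.5 kb inside the gene, ASO10 gave -0.027 with loess offsets and -0.011 with a minimum of 10 counts. At TBX2, ASO2 against ASO10 was -0.006 with loess offsets 5.7 kb before the gene and -0.02 7.5 kb past it, where ASO2 gave -0.002 with RLE factors, -0.003 with limma-voom, -0.074 with loess offsets, -0.017 with a minimum of 10 counts and -0.016 with only the groups compared. The INSM1 log2 ratio of window sums, ASO2 to NCA, was -0.153 at 20 kb.

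Leaving out 1 library at a time gave these ranges of log2 fold change. ASO2 against NCA ranged from -0.016 to 0.159 at the INSM2 start, -0.154 to 0.177 at the TFAP2B start and -0.125 to 0.162 at TBX2 7.5 kb past the gene. ASO10 against NCA ranged from -0.588 to 0.148 at INSM1 12.5 kb before the gene, -0.122 to 0.407 at the INSM1 gene end, -0.069 to 0.162 at TFAP2B 3.5 kb inside and -0.23 to 0.127 at TBX2 7.5 kb past. ASO2 against ASO10 ranged from -0.002 to 0.305 at INPPL1, -0.304 to 0.232 at the INSM1 gene end, -0.055 to 0.326 at TBX2 5.7 kb before and -0.104 to 0.234 at 7.5 kb past. Window sums, as log2 ratios, ranged from -0.003 to 0.07 for PHOX2A (ASO10 to NCA). For INSM1 they ranged from -0.029 to 0.124 (ASO2 to NCA) and -0.132 to 0.022 (ASO2 to ASO10). TFAP2B gave -0.1 to 0.053 (ASO2 to NCA), -0.067 to 0.105 (ASO10 to NCA) and -0.115 to 0.055 (ASO2 to ASO10). Depth limits weak regions: the INSM1 gene-end region had 12 to 30 counts per library.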

Other observations

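Beyond the INSM2 window, RALGAPA1 continued with further regions, 11 in all over its 270.9 kb span and 8 of them tested. The region over its upper-coordinate end, away from INSM2 (chr14:35808628-35809490), had 24.8 ± 1.12 CPM in NCA, 23.0 ± 3.60 in ASO2 and 31.6 ± 3.61 in ASO10 (SD, n = 3 each). It was lower in ASO2 than in ASO10 by a log2 fold change of -0.46 ± 0.14 (edgeR adjusted p = 0.0272), and ASO10 against NCA gave 0.35 ± 0.14 (edgeR adjusted p = 0.248). A weak region inside the gene (chr14:35735920-35736150) rose under ASO2, from 0.812 ± 0.0830 to 2.70 ± 1.06 CPM (1.69 ± 0.55, edgeR adjusted p = 0.0408), and had 2.23 ± 0.319 in ASO10. RALGAPA1 was looked at after the values of the INSM2 window were seen.

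Between 50 and 100 kb from the 5 genes, 3 of 30 tested regions were called under ASO2 (10.0%, where 5.6% of all tested regions were). The region 50.7 kb before INSM2 rose by 1.09 ± 0.29 (edgeR adjusted p = 0.00584), and one 82.0 kb past INSM1 rose by 0.72 ± 0.23 (edgeR adjusted p = 0.0322). A region 67.8 kb past TBX2 had a log2 fold change of -0.70 ± 0.23 (edgeR adjusted p = 0.0449), with 9.63 CPM in NCA, 5.92 in ASO2 and 6.43 in ASO10.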
